A study of Rattus norvegicus with 4 samples.

Results

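The microRNAs (miRNAs) miR-15a-5p, miR-15b-5p, miR-16-5p, miR-195-5p and miR-497-5p belong to 1 family and were followed in rat aortic vascular smooth muscle cells. Of these 5 names, 4 had a mature rat sequence in the RefSeq table used (assembly GRCr8), out of 692 distinct mature sequences in that table, and miR-15a-5p is named only. A sequenced tag (a distinct read sequence with its read count) was given to a member if its first 18 nt were identical to those of the mature miRNA. The cells, from Sprague-Dawley rats, were cultured in medium with 10% FBS and all were kept without serum for 48 h. There were 4 groups with 1 small RNA library each: control cells that received no angiotensin II (Ang II), and cells given 100 nM Ang II for 1 h, 3 h or 24 h. Ang II is a peptide hormone that constricts vessels and acts on smooth muscle cells through its receptors. The question was which small RNAs change with the time of Ang II. Each group being a single library, no replicates exist and conditions were not tested; the control has no time of its own, so the effect of Ang II cannot be told apart from that of further culture.

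A miRNA guides the Argonaute protein to messenger RNAs that pair with its seed, bases 2 to 8 of the mature strand, and lowers their output. The miR-15/16 family shares 1 seed and is known as a brake on cell division and survival, with cyclins and the anti-apoptotic protein Bcl2 among its targets in human and mouse cells. In the mouse heart, miR-195 and its relatives hold back the division of muscle cells after birth, and miR-195 has been described as a brake on the growth of smooth muscle cells.

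The mature sequences are shown because the seed joins the members and the remaining bases tell them apart; the seed is in capitals.
miR-15b-5p: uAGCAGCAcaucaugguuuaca
miR-16-5p: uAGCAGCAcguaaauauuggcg
miR-195-5p: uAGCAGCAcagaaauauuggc
miR-497-5p: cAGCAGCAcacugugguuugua
All 4 carry the same seed. From base 1, miR-16-5p and miR-195-5p were identical at 19 of the 21 positions compared, whereas miR-15b-5p and miR-497-5p, from different clusters, were identical at 16 of 22. Members of 1 cluster were less alike: miR-15b-5p and miR-16-5p were identical at 14 of 22 positions, and miR-497-5p and miR-195-5p at 12 of 21. In GRCr8, miR-15b-5p lies at chr2:155555197-155555218 and miR-16-5p at chr2:155555343-155555364, both on the plus strand, in hairpins with 51 bases between them. Both hairpins lie inside Smc4, which encodes a subunit of the condensin complex that compacts chromosomes. miR-497-5p lies at chr10:55450172-55450193 and miR-195-5p at chr10:55450509-55450529, also on the plus strand, with 255 bases between their hairpins and no other annotated gene spanning either. Mammals make miR-16-5p from more than one locus, so its reads cannot be assigned to the chromosome 2 cluster alone.

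The 4 libraries held between 13119417 and 14534892 reads that name a sequence, and 68.4% to 74.4% of these reads began like a mature miRNA of the table. Levels (RPM) are reads scaled to a library of 1000000 such reads. All intervals are exact at 95% and hold counting error alone, because each group is 1 library. They treat every read as a separate count, although reads copied by PCR do not count separate molecules, so they may be too narrow. The 4 listed smooth muscle arms were those of miR-143 and miR-145. Together they held between 305800 and 312700 RPM in the Ang II libraries and 251000 RPM in the control. This sum was led by miR-143-3p, with 3572929 reads in the control, where miR-145-5p had 32749, miR-143-5p 4817 and miR-145-3p 3455. The endothelial arms miR-126a-3p and miR-126a-5p summed to 120 RPM in the control, 113 RPM after 1 h, 125.5 RPM after 3 h and 105 RPM after 24 h. The 5 blood and immune arms in the table summed to 0.457 to 0.757 RPM, with miR-142-5p, miR-144-3p and miR-223-3p at 0 reads in every library. The 3 epithelial arms in the table summed to 3.55 to 6.40 RPM. The 6 striated muscle arms summed to 124 RPM in the control, 111 RPM after 1 h, 102 RPM after 3 h and 99.8 RPM after 24 h, led by miR-1-3p, with miR-133b-3p and miR-208a-3p at 0. The part of the other cell types in the results below was not tested.

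miR-16-5p was the most abundant member in every library, followed by miR-15b-5p, and miR-497-5p and miR-195-5p were far lower. Over the 4 libraries together, miR-16-5p ranked 49 and miR-15b-5p ranked 76 of the 406 miRNAs with reads, whereas miR-497-5p ranked 165 and miR-195-5p ranked 169. miR-16-5p had 527 RPM in the control (515 to 539), 538 RPM after 1 h (526 to 551), 573 RPM after 3 h (561 to 585) and 441 RPM after 24 h (431 to 452). In RPM, its highest library was thus the one at 3 h and its lowest the one at 24 h. This order depended on the scaling. With the TMM factors described below, its log2 ratio of 24 h to control was 0.01. As a share of miRNA reads it stood at 0.0770% in the control and 0.0770% at 3 h.

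miR-15b-5p had 159 RPM in the control (152 to 165), 144 RPM after 1 h (138 to 151), 160 RPM after 3 h (153 to 167) and 98.9 RPM after 24 h (93.8 to 104). The 24 h library was the lowest, and its interval lay below those of the other 3.

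The chromosome 10 pair rested on 70 to 134 reads per library and member. miR-497-5p had 134 reads in the control (9.31 RPM, 7.80 to 11.0), 86 after 1 h (6.56 RPM, 5.24 to 8.10), 110 after 3 h (7.66 RPM, 6.29 to 9.23) and 70 after 24 h (4.82 RPM, 3.75 to 6.09). Its control library was the highest and its 24 h library the lowest. miR-195-5p had 93 reads in the control (6.46 RPM, 5.21 to 7.91), 78 after 1 h (5.95 RPM, 4.70 to 7.42), 108 after 3 h (7.52 RPM, 6.17 to 9.07) and 104 after 24 h (7.16 RPM, 5.85 to 8.67). Its 4 intervals all overlapped. The order of the pair changed across the libraries: miR-497-5p was the higher of both in the control and miR-195-5p at 24 h. Their separate intervals overlapped in each of the 4 libraries. Compared directly, miR-497-5p made up 59.0% of the pair's reads in the control (52.3 to 65.5) and 40.2% at 24 h (32.9 to 47.9). With the mature sequences alone it made up 79.1% and 76.5%, so the order did not change between these libraries. Levels of different miRNAs also depend on how well each one is ligated to the adapters, so the order is that of reads.

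**Figure D1:**
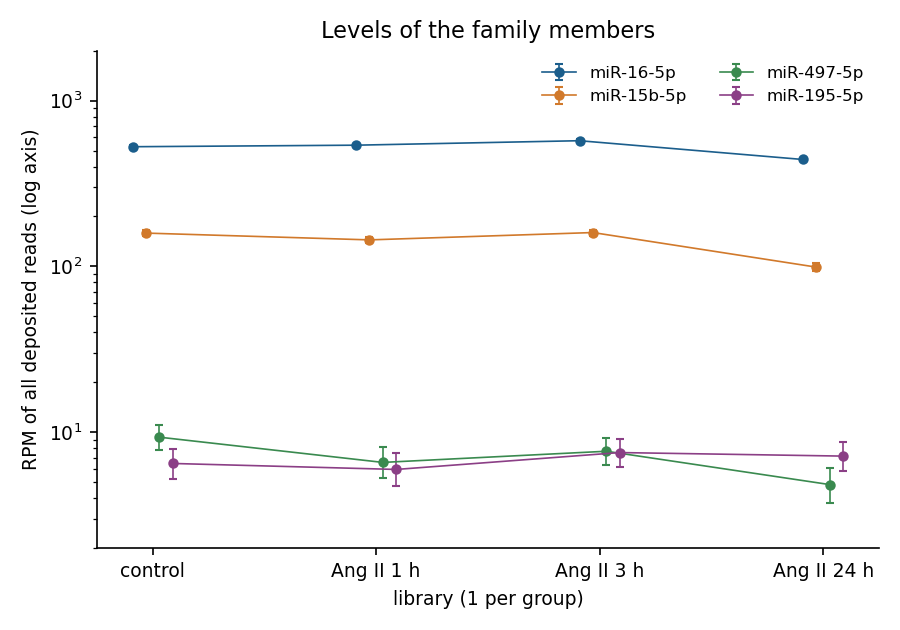
Level of each member in RPM of all deposited reads that name a sequence (log axis) in the control library and after 1 h, 3 h and 24 h of Ang II, 1 library each. Points are values and bars exact 95% Poisson intervals for counting error. The level of miR-15b-5p drops to 98.9 RPM at 24 h. The points of miR-497-5p and miR-195-5p change places between the control and 24 h, with overlapping intervals in each library. With the mature sequences alone their order did not change.

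A member was called past the limit if log2((RPM + 1)/(control RPM + 1)) passed 1.5-fold and the higher of both libraries had at least 100 reads. After 1 h of Ang II, 0 of the 3 members with 100 reads were past the limit in either direction, where 2.31% of 173 miRNAs were lower and 2.31% higher. The ratio of 1 h to control was 0.704 for miR-497-5p (0.531 to 0.930) and 0.910 for miR-15b-5p (0.856 to 0.968). miR-16-5p stood at 1.02 times the control (0.989 to 1.05). miR-195-5p, which had fewer than 100 reads in both libraries, stood at 0.920 times (0.672 to 1.26).

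After 3 h, 0 of 4 members were past the limit, where 4% of 175 miRNAs were lower and 4% higher. miR-195-5p stood at 1.16 times the control (0.873 to 1.55), miR-16-5p at 1.09 times (1.05 to 1.12), miR-15b-5p at 1.01 times (0.9504 to 1.07) and miR-497-5p at 0.822 times (0.633 to 1.07). The interval of miR-16-5p alone left out 1, and its log2 ratio of 0.12 was small beside the limit. Scaled to miRNA reads, miR-15b-5p lay below the control at 3 h (log2 ratio -0.11) and miR-16-5p level with it.

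After 24 h, the ratios of the 4 members to the control ranged from 0.517 to 1.11. The intervals of miR-15b-5p and miR-497-5p overlapped, as did those of miR-16-5p and miR-195-5p. miR-15b-5p and miR-497-5p were past the limit on the lower side, which made 2 of 4 members, where 16.4% of 177 miRNAs were lower and 5.08% higher. The reads for miR-15b-5p were 1437 at 24 h and 2285 in the control, a ratio of 0.623 (0.583 to 0.666) and a log2 ratio of -0.68. The reads for miR-497-5p were 70 at 24 h and 134 in the control, a ratio of 0.517 (0.382 to 0.696) and a log2 ratio of -0.83. miR-16-5p, with 6414 reads at 24 h and 7587 in the control, stood at 0.837 times the control (0.810 to 0.866). miR-195-5p stood at 1.11 times the control (0.829 to 1.48), on 104 reads at 24 h and 93 in the control. With its mature sequence alone counted the direction turned, to a log2 ratio of -0.30 in place of 0.13, on 12 reads at 24 h and 18 in the control.

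The median log2 ratio of the 177 miRNAs at 24 h was itself -0.25, so the members are also given relative to it. Counted from the lowest ratio, miR-497-5p ranked 11, miR-15b-5p 21, miR-16-5p 88 and miR-195-5p 144 of 177. Relative to that median, miR-497-5p lay at -0.57, miR-15b-5p at -0.42 and miR-195-5p at 0.38 on the log2 scale, and miR-16-5p lay at the median. TMM factors, which assume that most miRNAs do not change, put the median at 0.01. With them miR-16-5p had a log2 ratio of 0.01 in place of -0.26, miR-15b-5p one of -0.41, miR-195-5p one of 0.37 and miR-497-5p one of -0.62, which left 1 of 4 members past the limit, where 5.08% of miRNAs were lower. Over the 4 scalings tried, the log2 ratio at 24 h ranged from -0.75 to -0.41 for miR-15b-5p, from -0.92 to -0.61 for miR-497-5p, from -0.33 to 0.01 for miR-16-5p and from 0.07 to 0.37 for miR-195-5p.

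The call of miR-15b-5p was also lost with median-of-ratios factors (log2 ratio -0.43), where 1 of 4 members and 6.21% of miRNAs were lower, and both calls were kept when libraries were scaled to miRNA reads, where 24.9% were lower. miR-497-5p was not past the limit with a pseudocount of 10 RPM (log2 ratio -0.38), where 1 of 4 members and 7.34% of miRNAs were lower. With the mature sequence alone counted it had fewer than 100 reads in both libraries (log2 ratio -0.64), and 1 of the 2 members with 100 reads was called, miR-15b-5p, beside 13.4% of 127 miRNAs. No member was 2-fold lower, where 2.26% of miRNAs were. When the 24 h library was compared with the 1 h library, miR-15b-5p had a log2 ratio of -0.54 and miR-497-5p one of -0.38, and 0 of the 3 members with 100 reads (miR-497-5p had fewer in both libraries) were past the limit, where 8.33% of 168 miRNAs were lower.

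**Figure D2:**
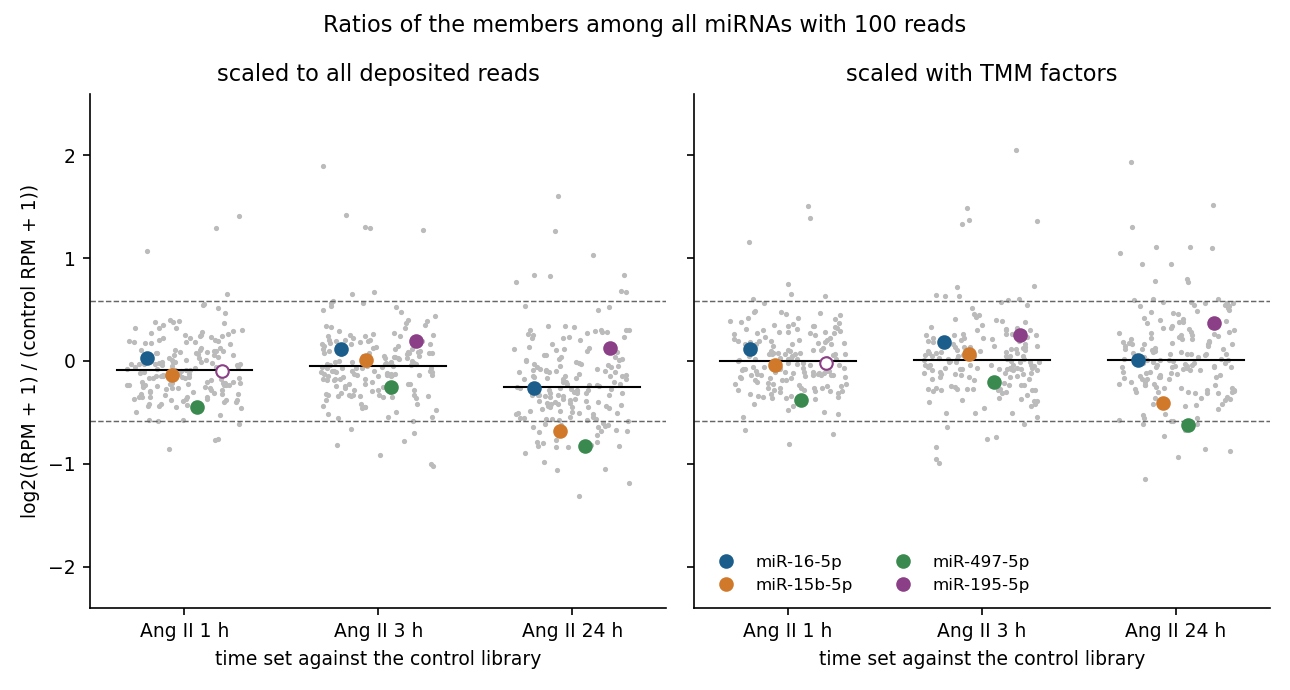
Log2 ratio of each Ang II library to the control, scaled to all deposited reads that name a sequence (left) and with TMM factors (right). Grey points are the other miRNAs with at least 100 reads, coloured points the members (open where under 100 reads), black lines the median of all miRNAs with 100 reads and dashed lines 1.5-fold; at 24 h miR-497-5p (-0.83) and miR-15b-5p (-0.68) lie below the lower dashed line in the left panel, and miR-497-5p alone (-0.62) in the right.

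Ratios between members inside 1 library do not depend on how libraries are scaled. Of the reads of miR-15b-5p and miR-16-5p together, miR-15b-5p made up 23.2% in the control (22.3 to 24.0), 21.2% after 1 h (20.3 to 22.0), 21.8% after 3 h (21.0 to 22.6) and 18.3% after 24 h (17.5 to 19.2). The interval at 24 h lay below those of the other 3 libraries. With the mature sequence alone, the shares were 21.8%, 20.4%, 21.0% and 17.0%, again lowest at 24 h.

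Of the reads of miR-497-5p and miR-195-5p together, miR-497-5p made up 59.0% in the control (52.3 to 65.5), 52.4% after 1 h (44.5 to 60.3), 50.5% after 3 h (43.6 to 57.3) and 40.2% after 24 h (32.9 to 47.9). The intervals at 24 h and in the control did not overlap. This difference was not seen with the mature sequences of the table alone, where miR-497-5p made up 76.5% at 24 h and 79.1% in the control, on 12 and 18 reads of miR-195-5p.

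**Figure D3:**
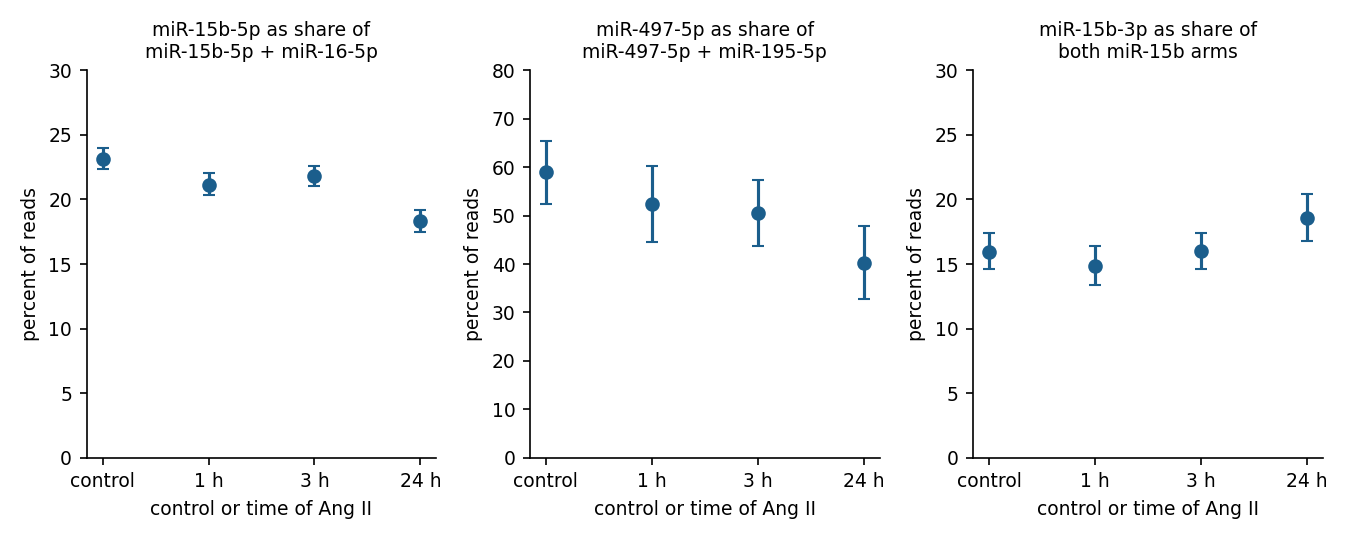
Percent of reads inside each library that came from miR-15b-5p among miR-15b-5p and miR-16-5p (left), from miR-497-5p among miR-497-5p and miR-195-5p (middle) and from miR-15b-3p among both miR-15b arms (right). Points are 1 library each and bars exact 95% binomial intervals for counting error; the first 2 shares are lowest at 24 h, at 18.3% and 40.2%.

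The opposite arms of the hairpins, which are usually discarded when the mature strand is loaded, were read to different extents. miR-15b-3p (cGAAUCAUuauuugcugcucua, seed in capitals) had 434 reads in the control, 330 after 1 h, 438 after 3 h and 327 after 24 h. Its ratio to the control was 0.834 after 1 h (0.721 to 0.965), 1.01 after 3 h (0.883 to 1.16) and 0.746 after 24 h (0.645 to 0.863), not past the limit at any time. Its intervals at 1 h (22.5 to 28.0 RPM) and 24 h (20.1 to 25.1 RPM) overlapped, and with TMM factors its log2 ratio was -0.16 at 1 h and -0.15 at 24 h, so which of both was lowest depended on the scaling. It made up 16.0% of the reads of both arms in the control (14.6 to 17.4), 14.8% after 1 h (13.4 to 16.4), 16.0% after 3 h (14.7 to 17.4) and 18.5% after 24 h (16.8 to 20.4). The interval at 24 h lay above that at 1 h and overlapped those at 3 h and in the control. With the mature sequences alone the shares were 6.32% in the control, 3.19% after 1 h, 5.52% after 3 h and 5.91% after 24 h, so 24 h was then not the highest; the most read miR-15b-3p tag was 1 nt shorter than the table's sequence.

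miR-16-3p had 9 reads in the control, 9 after 1 h, 26 after 3 h and 11 after 24 h, which is 0.315% of the reads of both arms at 3 h (0.206 to 0.461) and 0.119% in the control (0.0542 to 0.225), with overlapping intervals. Its ratio of 3 h to control was 2.89 (1.31 to 7.02), an interval that left out 1, but it had fewer than 100 reads and could not be called. Tags starting 1 nt further in, not counted here, had 6 reads in the control, 12 after 1 h, 8 after 3 h and 3 after 24 h, so at 1 h they outnumbered those at the annotated start. No tag of miR-195-3p or miR-497-3p began at the annotated start in any of the 4 libraries; a floor of 3 counts is 0.206 to 0.229 RPM. For miR-497-3p, 1 read in the control and 1 at 24 h started 1 nt further in.

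Most reads of the more abundant members were the mature sequence or lay within a base or so of its end. The 3 most read tags of each member over the 4 libraries are shown, with bases that depart from the table's mature sequence, or run past its end, in capitals.
miR-16-5p, mature form: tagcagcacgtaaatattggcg
miR-16-5p, longer form: tagcagcacgtaaatattggcgT
miR-16-5p, shorter form: tagcagcacgtaaatattggc
miR-15b-5p, mature form: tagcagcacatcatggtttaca
miR-15b-5p, shorter form: tagcagcacatcatggtttac
miR-15b-5p, differing form: tagcagcacatcatggtttGTGGA
miR-195-5p, longer form: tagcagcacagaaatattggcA
miR-195-5p, mature form: tagcagcacagaaatattggc
miR-195-5p, form ending in AA: tagcagcacagaaatattggcAA
miR-497-5p, mature form: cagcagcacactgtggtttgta
miR-497-5p, shorter form: cagcagcacactgtggtttgt
miR-497-5p, longer form: cagcagcacactgtggtttgtaG

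Of the miR-16-5p reads, the mature form made up 67.4% in the control, 68.6% after 1 h, 68.2% after 3 h and 68.0% after 24 h. The form with 1 extra U, the base that follows in the hairpin, made up 8.66%, 8.15%, 8.50% and 7.90% in the same order. A form with an extra A, which the hairpin does not hold there, made up 4.13%, 4.35%, 3.96% and 3.82%. Tags with a base changed past base 18 made up 5.50% in the control (4.99 to 6.03), 4.18% after 1 h (3.72 to 4.67), 4.32% after 3 h (3.90 to 4.79) and 4.54% after 24 h (4.04 to 5.08). For that class the control interval lay above those at 1 h and 3 h.

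Among miR-15b-5p reads, the mature form held 62.3% in the control, 65.6% after 1 h, 64.8% after 3 h and 62.1% after 24 h, and shorter forms 30.9%, 27.5%, 28.2% and 31.0%. Its lower level at 24 h was found in both forms: the mature form had 892 reads at 24 h and 1423 in the control, and the form 1 nt shorter had 420 reads at 24 h and 675 in the control. The third tag keeps the first 19 bases of miR-15b-5p and then differs, and it had 34 reads in the control, 26 after 1 h, 45 after 3 h and 24 after 24 h. It is 1 of 12 tags that leave the mature sequence at that place with GUG, which together made up 3.02% of the miR-15b-5p reads in the control (2.36 to 3.81), 2.53% after 1 h, 3.13% after 3 h and 3.20% after 24 h (2.35 to 4.25). The table's hairpin entries were not used for miR-15b, and the source of these bases was not tested. miR-15a-5p had no sequence in the table, so these tags could not be compared with it.

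The most read form of miR-195-5p was 1 base longer than the table's mature sequence. That form, which ends in the A that follows in the hairpin, made up 51.6% of miR-195-5p reads in the control, 67.9% after 1 h, 57.4% after 3 h and 57.7% after 24 h. The table's own 21 nt form made up 19.4%, 11.5%, 26.9% and 11.5%. Forms with extra bases that the hairpin does not hold made up 9.68% in the control (4.52 to 17.6), 10.3% after 1 h, 6.48% after 3 h (2.65 to 12.9) and 23.1% after 24 h (15.4 to 32.4). The share at 24 h lay above the interval after 3 h, on 24 reads at 24 h and 7 after 3 h, while the intervals at 24 h and in the control overlapped. The form ending in AA accounted for 19 of the 24 reads at 24 h, and had 6 reads in the control.

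Of the miR-497-5p reads, 50.7% were the mature form in the control, 48.8% after 1 h, 50.9% after 3 h and 55.7% after 24 h. Forms with extra bases that the hairpin does not hold made up 23.1%, 19.8%, 25.5% and 20.0%, more than the 4.91% to 5.55% of miR-16-5p in these libraries. The mature form had 39 reads at 24 h and 68 in the control. Tags of 26 nt or more were rare in all members, at most 0.421% of the reads of miR-16-5p and 0 reads for miR-195-5p and miR-497-5p.

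**Figure D4:**
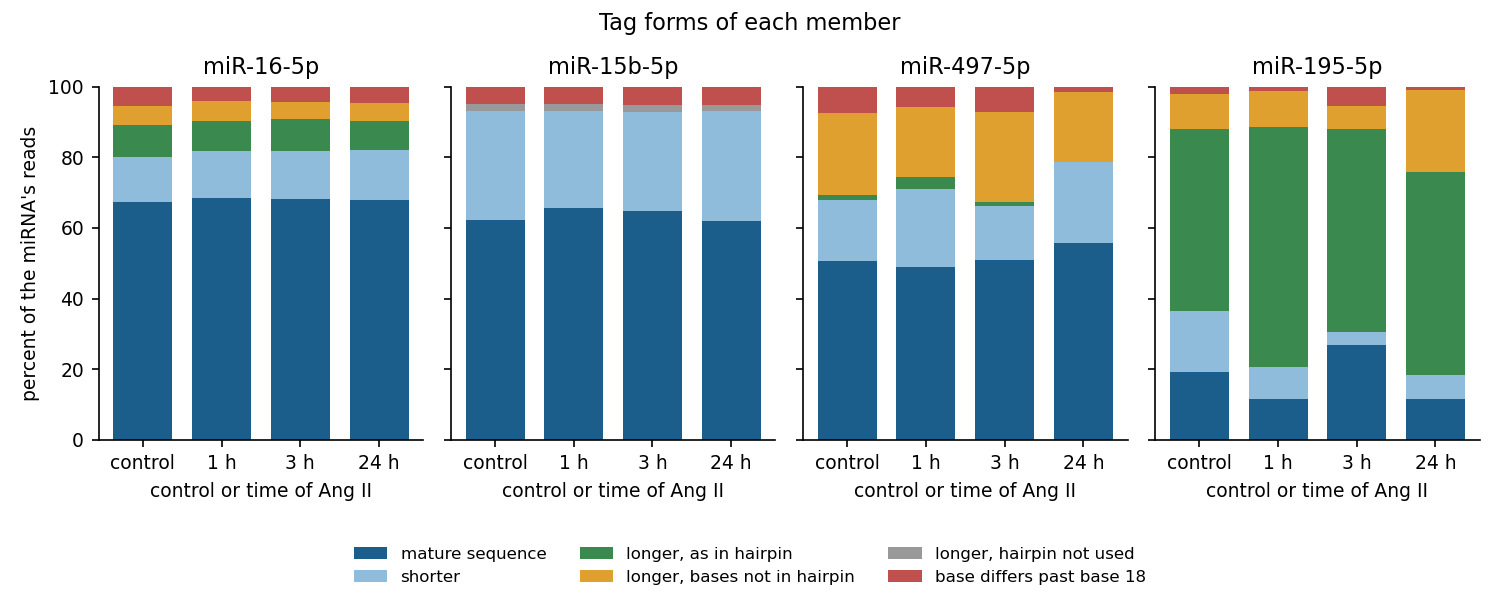
Percent of each member's reads by form of the tag in the control library and after 1 h, 3 h and 24 h of Ang II. Colours mark the mature sequence, shorter tags, longer tags that follow the hairpin or do not, longer tags of miR-15b-5p (hairpin not used), and tags with a differing base past base 18; the mature form holds 67.4% to 68.6% of miR-16-5p and 62.1% to 65.6% of miR-15b-5p reads, and miR-195-5p is mostly a longer form.

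For the 4 members, tags starting further in, which would shift the seed, were fewer than those at the first base. Starts further out were not looked for in miR-15b-5p, whose hairpin was not used, and in miR-497-5p only 1 nt out. Where looked for, they had at most 2 reads per library. Tags starting 1 nt further in had 124 reads in the control, 100 after 1 h, 116 after 3 h and 92 after 24 h for miR-16-5p, and 31, 12, 20 and 11 reads for miR-15b-5p. For miR-497-5p they had 6, 3, 2 and 5 reads, and for miR-195-5p 3, 0, 1 and 2. At 24 h the 5 reads of miR-497-5p stood beside 70 at the first base, and the 92 of miR-16-5p beside 6414.

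Outside the set, 2 miRNAs of the table share bases 2 to 7 with the members, and both come from the minus strand of chromosome X.
miR-322-5p: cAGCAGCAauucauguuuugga
miR-503-5p: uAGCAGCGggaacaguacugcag
miR-322-5p has the members' whole seed, and miR-503-5p differs from it in the last base. Together with miR-322-5p the members form a seed group, of which miR-16-5p made up 60.6% in the control, 62.9% after 1 h, 61.6% after 3 h and 65.3% after 24 h (64.3 to 66.2). In that group miR-15b-5p made up 18.2% in the control, 16.9% after 1 h, 17.2% after 3 h and 14.6% after 24 h (13.9 to 15.3), and miR-322-5p between 18.3% and 19.7%. At 24 h miR-322-5p stood at 0.736 times the control (0.692 to 0.782), not past the limit, and miR-503-5p at 0.330 times (0.224 to 0.478), the lowest ratio of the 177 miRNAs. These ratios use the same control library as those of the members.

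Summed, the 4 members had 702 RPM in the control (688 to 715), 695 RPM after 1 h (681 to 710), 748 RPM after 3 h (734 to 762) and 552 RPM after 24 h (540 to 564). The sum at 24 h was 0.787 times the control (0.764 to 0.811), a log2 ratio of -0.34 beside the median of -0.25 over all miRNAs. At 1 h and 3 h the log2 ratio of the sum was -0.01 and 0.09.

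The miRNAs with the most similar course were found by the root mean square difference of log2(RPM + 1), centred on its mean over the 4 libraries, among 174 other miRNAs with 100 reads. For miR-15b-5p these were miR-425-5p (difference 0.0436), miR-378a-3p (0.0462) and miR-20a-5p (0.0541), with log2 ratios of -0.64, -0.61 and -0.56 at 24 h. For miR-497-5p they were miR-342-3p (0.0447), miR-152-5p (0.0457) and miR-148a-5p (0.0568), with log2 ratios of -0.72, -0.80 and -0.79 at 24 h. For miR-16-5p they were miR-138-5p (0.0108), miR-361-5p (0.0260) and miR-101b-3p (0.0296), and for miR-195-5p miR-34c-5p (0.0616), miR-29c-3p (0.0668) and miR-34b-3p (0.0775). Between members the difference was 0.120 for miR-15b-5p and miR-497-5p, 0.155 for miR-15b-5p and miR-16-5p, and 0.342 for miR-497-5p and miR-195-5p. miR-15b-5p and miR-497-5p, from different clusters, were thus closer in course than the pair of either cluster. These differences rest on 4 libraries, include the counting error of the lower members and describe these libraries only.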

How the data were processed

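Per the labels' protocols, adapters were ligated to total RNA, the product was amplified over 12 PCR cycles, fragments holding 17 to 52 nt were picked on a gel, and a Genome Analyzer IIx read them. The deposited files hold raw read counts per distinct sequence, with no scaling. Novoalign and rn4 appear, without a role, in the submitters' processing notes; trimming and filtering are not given in the sources used here. A row without a sequence (5.13% to 7.07% of reads) was left out. Tags of 16 and 17 nt could not be matched.

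Tags were matched to RefSeq mature rat miRNAs (GRCr8) by their first 18 nt, the longest common start deciding and ties shared equally; both the matching and the size rule were tested on simulated data. Every miRNA was treated alike, and calls needed 1.5-fold and 100 reads. No test of conditions was made. Intervals are exact at 95%: Poisson for levels, Clopper-Pearson for shares, conditional binomial for ratios. For a count of 0, a floor of 3 counts is given. The exact Poisson upper limit was higher, at 0.254 to 0.281 RPM for miR-195-3p and miR-497-3p. Named were all members, their other arms, miRNAs sharing bases 2 to 7, the 3 miRNAs nearest in course and the 3 most read tags. Members and lists were chosen with earlier results of these data known. Alternatives were 3 other scalings (miRNA reads, median of ratios, and TMM from edgeR 4.0.16 under R 4.3.3), a pseudocount of 10 RPM, no read minimum, a 2-fold limit, other tag selections and another starting library. The scripts used Python 3.11.15 with scipy 1.17.1, numpy 2.4.6 and pandas 2.3.3; figures were drawn with matplotlib 3.10.9.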

Additional observations from a re-analysis of the deposited data

How the results depend on the processing

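The 12 alternatives were applied to the calls, ratios and shares of the members. The count of members lower at 24 h was 2, and it was 1 with TMM factors, median-of-ratios factors, a pseudocount of 10 RPM or the mature sequence alone, and 0 with a 2-fold limit or the 1 h library as the starting point. With no read minimum, matching by 20 nt, tags of at most 25 nt, tags with 2 or more reads, starts up to 2 nt in or out, or scaling to miRNA reads it was 2. The count of members higher or lower at 1 h and 3 h was 0 under each alternative that gives one. Scaled to miRNA reads, the log2 ratio of the summed members was -0.10 after 1 h, -0.03 after 3 h and -0.42 after 24 h. With TMM factors it was 0.08, 0.15 and -0.08, and with median-of-ratios factors 0.09 at 1 h and -0.10 at 24 h. None of the ratios past the limit changed sign under these 12 alternatives, but some that were not past it did. At 24 h that of miR-195-5p turned with the mature sequence alone, and the log2 ratio of miR-16-5p was 0.01 with TMM factors. Scaled to miRNA reads, the log2 ratio was -0.11 for miR-15b-5p at 3 h and -0.06 for miR-16-5p at 1 h, both above the control in the main run. Members with 100 reads at 24 h numbered 2 with the mature sequence alone and 3 against the 1 h library. The median 24 h log2 ratio of all miRNAs, -0.25 over all reads that name a sequence, was between -0.32 and 0.01 under the other 3 scalings. No paired analysis was possible because each group has 1 library, and for the same reason no library could be left out. At 70 to 134 reads per library, the intervals of miR-195-5p and miR-497-5p are wide, and differences smaller than these were not detectable.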
